A study of Mus musculus with 4 samples.

Results

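Tbx1, Tbx2, Tbx3, Tbx4 and Tbx5 are T-box transcription factors of the pharynx and the developing lung, and they were followed in lungs of mouse fetuses with reduced Fgf8. All array spots that were not controls and that carried 1 of these 5 gene names were taken, which gave 8 probes for 5 genes, among 41174 distinct probes for 28478 gene names. Tbx1 and Tbx2 had 1 probe each, and Tbx3, Tbx4 and Tbx5 had a brighter and a dimmer probe each. Each of 4 two-colour microarrays held RNA of 1 pool of Fgf8H/- hypomorph lungs, labelled with Cy5, and of 1 pool of Fgf8+/+ wild type littermate lungs, labelled with Cy3. Fgf8 is a secreted signal of the fibroblast growth factor family, and a hypomorph carries an allele of reduced function, here over an allele written with a minus sign. Both genotypes were taken at E18.5, shortly before birth, from a background labelled c57nl7/sv129, with no other allele and no treatment named. A pool held 3 lungs of 1 genotype, whose lobes had been separated from the large airways and vessels, so that spread between single fetuses was averaged within a pool, and the 4 pools of a genotype were biological repeats. The sample titles call the mutant AP/N, which differs from the Fgf8H/- of the notes on RNA extraction and is not explained in the sources used here; the genotypes given are those of the notes.

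T-box factors bind DNA through a shared domain, the T-box, and bind brachyury-type sequences that contain the core GGTGTGA. In the mouse lung Tbx2, Tbx3, Tbx4 and Tbx5 are transcribed in the mesenchyme and mesothelium that surround the branching epithelium; Tbx4 and Tbx5 act upstream of Fgf10 in the growth of the lung bud, and Tbx2 and Tbx3 are mostly repressors that keep cells dividing by holding down inhibitors of the cell cycle. Tbx1 acts in the pharyngeal endoderm and mesoderm, where Fgf8 is one of its known targets, and it lies in the region deleted in 22q11 deletion syndrome in humans. Whether lungs with reduced Fgf8 differ in these factors is the comparison the arrays allow.

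Tbx2 and Tbx3, the repressor pair, were lower in the hypomorph lungs, while Tbx4 and Tbx5, the activator pair, and Tbx1 did not pass the test. Tbx3 fell on both of its probes, 1.37-fold and 1.46-fold, and Tbx2 fell 1.17-fold. A probe was called when the mean log2 ratio of hypomorph over wild type differed from 0 at an adjusted p under 0.05, with limma and Benjamini-Hochberg adjustment over the 30008 probes bright enough to test. All 8 T-box probes were well above background in both genotypes on 4 of 4 arrays and none was saturated, so all 8 were tested. Of these, 3 were called lower, where 12.2% of all probes were called lower. None was called higher, where 12.7% of all probes were. At an unadjusted p under 0.05, 1 probe, the dimmer Tbx5 probe, lay above 0.

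Dyes were never exchanged between genotypes, so that an effect of the dye on a probe and an effect of the genotype cannot be told apart. The hypomorph channel was brighter before normalization: the Tbx1 probe read 6715 to 7717 in the wild type channel and 10442 to 11457 in the hypomorph channel, and the same order held for 7 of the 8 probes, with overlap for the dimmer Tbx3 probe. The directions therefore rest on the normalization. The loess used here removes a brightness-dependent difference between the channels within each array, while centring each array on its median keeps that difference. Whether that difference came from the dyes or from the genotypes cannot be told apart. Median centring moved the median ratio of all probes from -0.00 to 0.10, and bright probes moved most. Among the T-box probes it called 1 lower, where 12.8% of all probes were called lower, and 4 higher, where 36.7% of all probes were.

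**Figure D1:**
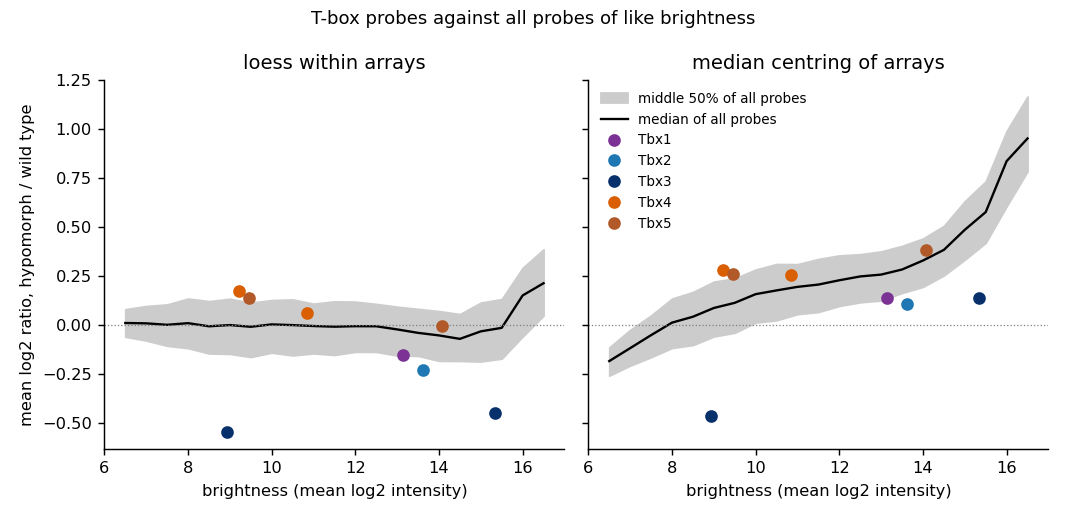
Mean log2 ratio of hypomorph over wild type (vertical axis) against brightness, the mean log2 intensity of both channels (horizontal axis), for the 8 T-box probes (points) and all tested probes (line, median; band, middle 50%), after loess (left) and after median centring (right). After loess the line stays near 0 up to a brightness of about 15, and after median centring it climbs with brightness; Tbx1, Tbx2 and the brighter Tbx3 probe lie below the line in both panels although their ratios change sign between them.

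Tbx3 is a repressor, and its loss causes ulnar-mammary syndrome in humans. Its brighter probe, at chr5:119945081-119945140 in build mm8, is assigned to the RefSeq transcript. Log2 intensities of this probe were 15.49, 15.55 and 15.62 in the wild type pools of arrays 1 to 3 and 15.02, 15.07 and 15.21 in the hypomorph pools. The spot of array 4 carried a scanner mark for an uneven background and was left out, so n = 3. The 2 genotypes did not overlap, a state in which the hypomorph was the lower one for 8.35% of all probes. The log2 ratios were -0.47, -0.48 and -0.41, with a mean of -0.45 ± 0.04 (SD, n = 3), a 95% interval of -0.58 to -0.32 and an adjusted p of 0.00616 with limma. Only 3.02% of all probes had a lower mean ratio. With the marked spot kept the mean was -0.47. Without array 2 the ratio was -0.44 with an adjusted p of 0.0557, and with median centring it lay above 0, at 0.14 with an adjusted p of 0.209.

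The dimmer Tbx3 probe, at chr5:119933349-119933408, lies 11.7 kb from the brighter one and is assigned to a full-length cDNA clone. It read 9.53, 9.64, 8.94 and 8.73 in the wild type pools of arrays 1 to 4, on the log2 intensity scale, and 8.48, 9.10, 8.68 and 8.38 in the hypomorph pools. The hypomorph pool was the lower one on every array, while the genotypes overlapped across arrays. The log2 ratios were -1.05, -0.53, -0.26 and -0.35, a mean of -0.55 ± 0.35 (SD, n = 4), with a 95% interval of -0.86 to -0.24 and an adjusted p of 0.0286 with limma. Array 1 gave the lowest ratio, and without it the mean was -0.38 with an adjusted p of 0.00848. Without array 2, 3 or 4 the mean stayed between -0.64 and -0.55 and the adjusted p ran from 0.0528 to 0.112, which is no longer a call. This is the T-box probe that was called lower with median centring too, at -0.47 with an adjusted p of 0.00244. After loess the 2 Tbx3 probes thus gave similar means with very different spreads, and just 1.57% of all probes had a lower mean than the dimmer one. With median centring the 2 probes lay on opposite sides of 0, the brighter one at 0.14 and not called.

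Tbx2, the other repressor of the pair, was measured by 1 probe at chr11:85657187-85657246. Its log2 intensities were 13.56, 13.63, 13.83 and 13.93 in the wild type pools and 13.38, 13.36, 13.55 and 13.74 in the hypomorph pools. Within every array the hypomorph was lower, while the genotypes overlapped across arrays. The log2 ratios were -0.18, -0.27, -0.28 and -0.19, a mean of -0.23 ± 0.05 (SD, n = 4), with a 95% interval of -0.34 to -0.13 and an adjusted p of 0.0148 with limma. The difference is small: 12.9% of all probes had a lower mean ratio. The call was lost without array 2 (-0.22, adjusted p = 0.0850), without array 3 (-0.22, adjusted p = 0.0760) and with the scanner's processed intensities (-0.18, adjusted p = 0.0595), and the ratio lay above 0 with median centring (0.10, adjusted p = 0.267).

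Tbx4, the hindlimb and lung factor of the activator pair, did not pass the test on either probe. The brighter probe, at chr11:85732087-85732146, read 10.87, 10.67, 10.69 and 10.98 in log2 intensity in the wild type pools and 11.12, 10.69, 10.71 and 10.93 in the hypomorph pools. The genotypes overlapped, and the mean log2 ratio was 0.06 ± 0.13 (SD, n = 4), with a 95% interval of -0.08 to 0.20 and an adjusted p of 0.466. Array 1 held a ratio of 0.25, while the other 3 lay between -0.04 and 0.02, and without array 1 the mean was -0.00. The dimmer probe, at chr11:85727345-85727404 and 4742 bp away, read 9.07, 9.06, 9.04 and 9.39 in the wild type pools and 9.48, 9.27, 9.15 and 9.37 in the hypomorph pools. These overlapped as well, with ratios of 0.42, 0.20, 0.10 and -0.02 and a mean of 0.18 ± 0.19 (95% interval -0.01 to 0.36, adjusted p = 0.130 with limma). Array 1 gave the highest ratio on both probes. With median centring both probes were called higher, at 0.26 and 0.28.

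Tbx5, the forelimb, heart and lung factor, was likewise not called. Its brighter probe, at chr5:120144695-120144754, read 13.91, 13.99, 14.16 and 14.23 in log2 intensity in the wild type pools and 13.97, 14.00, 14.12 and 14.18 in the hypomorph pools. The genotypes lay on each other, with ratios of 0.06, 0.01, -0.04 and -0.05 and a mean of -0.01 ± 0.05 (SD, n = 4; adjusted p = 0.937 with limma). Its 95% interval, -0.11 to 0.10, is the narrowest statement of a small difference among the T-box probes, although with median centring the same probe was called higher at 0.38. The dimmer probe spans chr5:120132000-120143562 across 11563 bp of genome, a stretch longer than the probe itself. It read 9.32, 9.18, 9.37 and 9.70 in the wild type pools and 9.56, 9.20, 9.54 and 9.82 in the hypomorph pools. Its ratios of 0.24, 0.02, 0.18 and 0.11 lay above 0 on 4 of 4 arrays, with a mean of 0.14 ± 0.09 (95% interval 0.02 to 0.26, adjusted p = 0.0904).

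Tbx1 was the one pharyngeal factor, and it was readily measured in these lungs, well above background in all 8 pools. Its probe, at chr16:18495286-18495345, read 13.18, 13.26, 13.17 and 13.22 in log2 intensity in the wild type pools and 12.93, 13.15, 13.02 and 13.11 in the hypomorph pools. The genotypes did not overlap, with every hypomorph pool below every wild type pool, as was so for 8.35% of all probes. The log2 ratios were -0.25, -0.12, -0.15 and -0.10, a mean of -0.15 ± 0.07 (SD, n = 4), with a 95% interval of -0.26 to -0.05 and an adjusted p of 0.0516 with limma, which just missed the threshold. Under 9 alternatives that leave the size nearly as it is, such as scaling between arrays or array weights, the adjusted p lay between 0.0205 and 0.0496. Several of these kept the same ratio and changed only the set of probes tested or the fit. Tbx1 was not called with processed intensities (adjusted p = 0.106), plain background subtraction (0.0862), an offset of 16 (0.0683) or a loess span of 0.1 (0.0782). Leaving out any single array also left it uncalled, with an adjusted p from 0.0853 to 0.154. The sign depended on the scaling, and with median centring the mean was 0.14 with an adjusted p of 0.112.

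**Figure D2:**
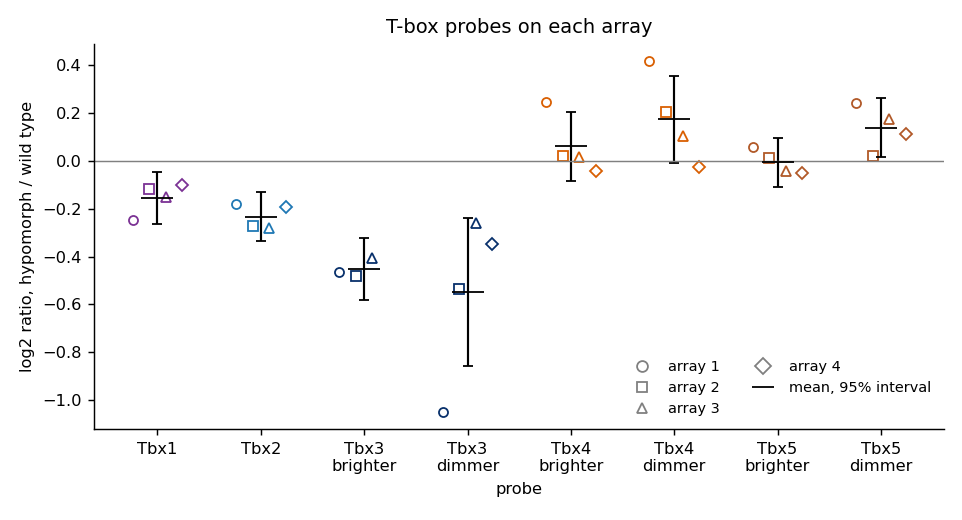
Log2 ratio of hypomorph over wild type (vertical axis) of each T-box probe (horizontal axis) on each of the 4 arrays (symbols), with the mean and its 95% interval (black). Every Tbx1, Tbx2 and Tbx3 value lies below 0 and the Tbx4 and Tbx5 values lie near or above it; with median centring the means of Tbx1, Tbx2 and the brighter Tbx3 probe lay above 0.

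**Figure D3:**
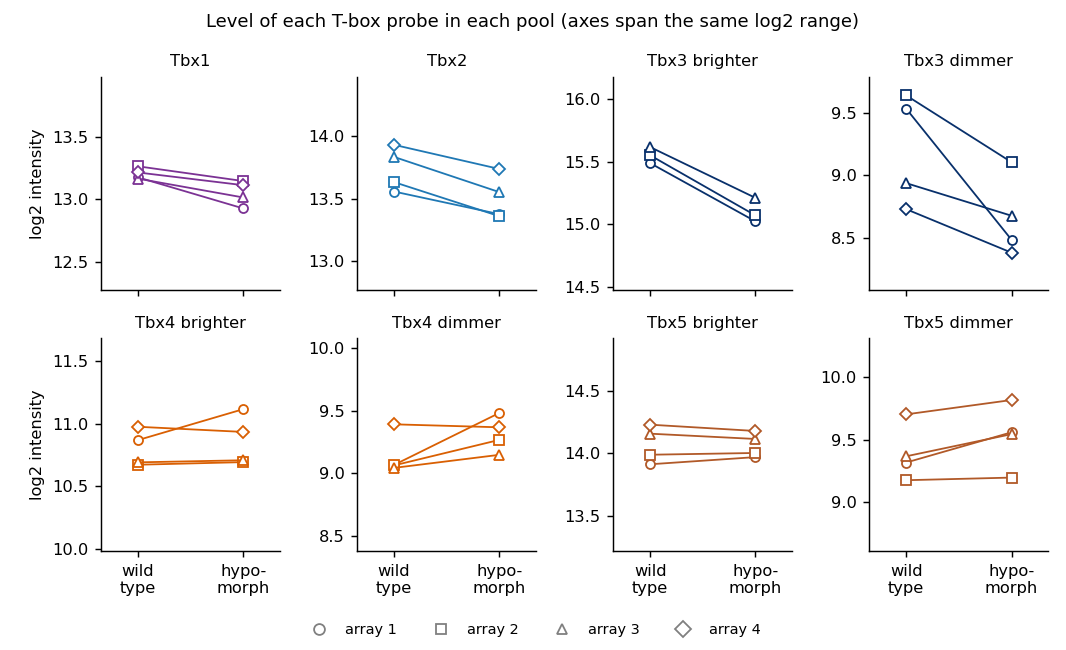
Log2 intensity (vertical axis) of each T-box probe in each pool, wild type on the left and hypomorph on the right of each panel, with a line joining the 2 pools of an array and vertical axes that span the same range. Lines slope down for Tbx1, Tbx2 and both Tbx3 probes and are flat or slope up on most arrays for Tbx4 and Tbx5; levels follow loess, and median centring turned the mean slope of Tbx1, Tbx2 and the brighter Tbx3 probe upwards.

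Setting the T-box probes against each other within an array removes any shift that all probes of an array share, and these differences were chosen after the values above were seen, so they are a description. Tbx3 minus Tbx5 was -0.52, -0.50 and -0.36 on arrays 1 to 3 for the brighter probes, a mean of -0.46 ± 0.09 (SD, n = 3). For the dimmer probes it was -1.29, -0.56, -0.44 and -0.46, a mean of -0.69 ± 0.41 (SD, n = 4). Tbx3 was the lower of these neighbours on every array measured. Tbx2 minus the brighter Tbx4 probe was -0.43, -0.29, -0.30 and -0.15, a mean of -0.29 ± 0.11 (SD, n = 4). Each of these differences stayed below 0 on every array under 15 settings of background, normalization and filter, median centring included. Their means ranged from -0.60 to -0.27, from -0.82 to -0.65 and from -0.30 to -0.15 respectively. Several of the settings, such as the filters and variance models, leave the ratios within an array as they are and could not alter these differences. With median centring Tbx2 minus the brighter Tbx4 probe was -0.0024 on array 4, close to 0.

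The brightness of neighbours gives another reference. Among probes within 0.5 log2 units of brightness, the median ratio after loess was -0.02 around the brighter Tbx3 probe (567 probes), -0.04 around Tbx2 (2164 probes) and -0.03 around Tbx1 (2513 probes). Relative to it, these probes lay at -0.43, -0.19 and -0.13. After median centring the surrounding medians were 0.53, 0.30 and 0.27, and the same probes lay at -0.40, -0.19 and -0.13 relative to them. The 2 scalings differ mainly by a function of brightness, so the distance to probes of like brightness is nearly fixed by construction, and its likeness under both is a description.

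**Figure D4:**
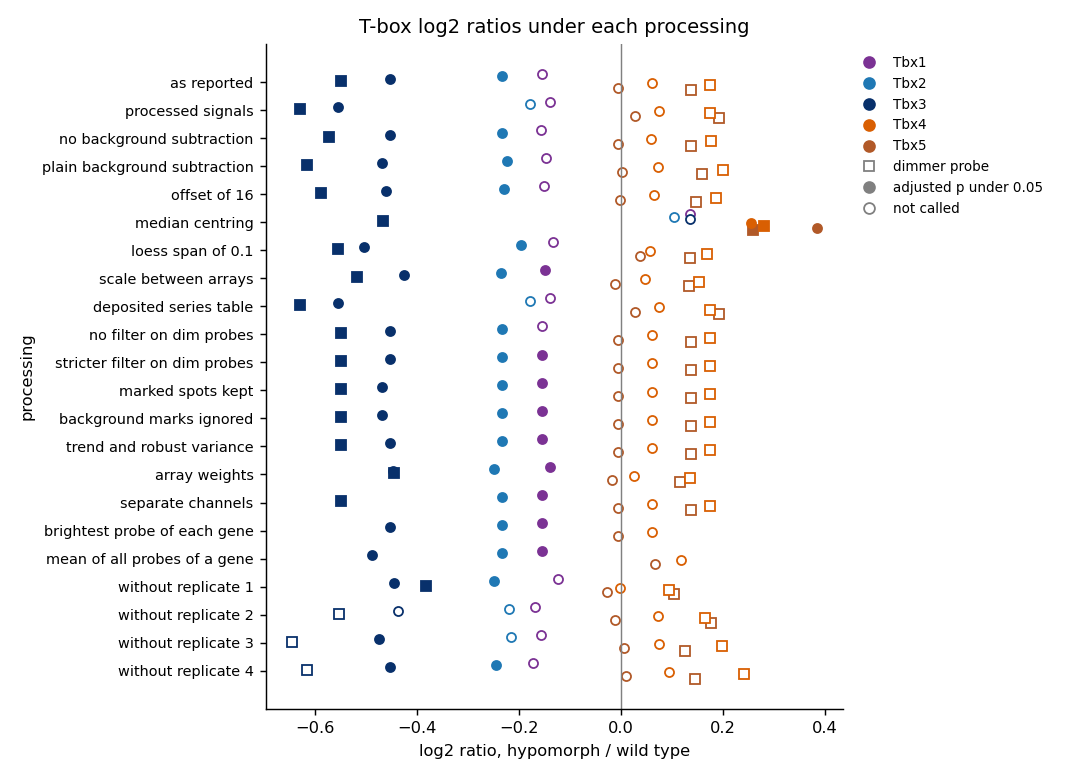
Mean log2 ratio of hypomorph over wild type (horizontal axis) of each T-box probe under each processing (vertical axis); filled symbols had an adjusted p under 0.05, squares are the dimmer probes. A Tbx3 probe lies farthest to the left under every processing shown; median centring puts the other 7 probes to the right of 0.

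Fgf8 itself, the gene altered in the mutant, was measured by 1 dim probe. Its log2 ratios were -0.31, -0.23, -0.09 and -0.09, a mean of -0.18 ± 0.11 (SD, n = 4; adjusted p = 0.0572 with limma). The hypomorph was lower on 4 of 4 arrays without passing the test, and the probe passed under 6 of 17 alternatives that keep all arrays, the processed intensities among them (-0.25, adjusted p = 0.0486). Whether this probe lies in a part of the transcript that the alleles alter was not examined. The counts over all probes were sensitive to single arrays: 3663 probes were called lower in all, against 784 without array 2, 1235 without array 3 and 2405 without array 4, and 3802 were called higher, against 827, 1153 and 2433.

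The lungs carried the marker genes of their labelled tissue, with 15 of 15 lung epithelial and 12 of 12 lung fibroblast markers well above background in all 8 pools. Mesothelium, the covering layer in which Tbx2, Tbx3, Tbx4 and Tbx5 are all transcribed, had mostly lower markers after loess. Of its 7 markers, 6 were called lower, with a median log2 ratio of -0.45 over the list, where 13.0% of 20623 genes by their brightest probe were called lower. The summed linear intensity of the 6 mesothelial markers with values in every pool ran from 34948 to 41384 in the wild type pools and from 30117 to 33649 in the hypomorph pools, without overlap. With median centring the median of the list was -0.18, with 3 markers called lower and 1 higher. Endothelial markers (4 of 8 called lower, 1 higher) and lymphatic ones (2 of 5 lower, 1 higher) also had lower summed intensities in the hypomorph pools, 141707 to 161441 against 183842 to 186343 and 21965 to 25040 against 34035 to 39143. With median centring 6 of the 8 endothelial markers were called higher, so their direction depends on the scaling. The part of these cell types in the T-box ratios was not tested, and in whole lobes fewer cells of a type and less RNA per cell cannot be told apart.

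Markers of organs derived from the pharynx, where Tbx1 acts, were in part not well above background. Of 10 thymus, thyroid and parathyroid markers, 5 were well above background in all 8 pools. These were Tg, which encodes thyroglobulin, the parathyroid factor Gcm2, and the thymocyte genes Rag1, Dntt and Cd8b1. The thymic proteasome gene Psmb11 was well above background in 7 pools, the thyroid iodide transporter gene Slc5a5 and the parathyroid hormone gene Pth were in none, and the thymic epithelial factor Foxn1 was in 1 pool. The summed intensity of the 6 markers with values in every pool was 1194 to 1517 in the wild type pools and 1216 to 1531 in the hypomorph pools, which overlapped. Of 8 cartilage markers, 6 were well above background in all pools and Matn1 was in none.

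The genes that Tbx2 and Tbx3 are known to repress in other settings lay on both sides of 0. Of 12 such genes, all tested, 5 were called lower and 2 higher, with a median log2 ratio of -0.17; over all genes 13.0% were called lower and 13.6% higher, with a median of -0.00. Cdkn1a, the cell cycle inhibitor p21, had log2 ratios of -0.11, -0.23, -0.40 and -0.44, a mean of -0.30 ± 0.15 (SD, n = 4; adjusted p = 0.0250). Cdkn1b, the inhibitor p27, was also lower, at -0.26 ± 0.08 (adjusted p = 0.0136), with another of its 3 probes called lower at -0.27 and the last at -0.12. The Cdkn1a call was lost without array 2, 3 or 4 (adjusted p = 0.0918, 0.0988 and 0.0757) and with plain background subtraction (adjusted p = 0.0522), and the Cdkn1b call without array 2 (adjusted p = 0.0799). With median centring neither was called, at -0.12 and -0.00.

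Frzb, a secreted WNT inhibitor that Tbx2 and Tbx3 repress in lung mesenchyme, fell 1.44-fold. Its log2 ratios were -0.30, -0.51, -0.53 and -0.75, a mean of -0.52 ± 0.18 (SD, n = 4; adjusted p = 0.00722). Shisa3, a WNT and FGF antagonist named beside Frzb as a target, rose 1.24-fold, with ratios of 0.27, 0.24, 0.23 and 0.48 and a mean of 0.31 ± 0.12 (adjusted p = 0.0147). The 2 secreted or membrane-bound antagonists thus lay on opposite sides of 0. Cdh1, the epithelial adhesion protein E-cadherin, rose by 0.23 ± 0.09 (adjusted p = 0.0238). Cdh1 is a gene of the epithelium and Tbx2 and Tbx3 are genes of the mesenchyme and mesothelium, and which cells the Cdh1 rise comes from was not tested. Gja1, the gap junction protein connexin 43, fell by 0.24 ± 0.10 (adjusted p = 0.0218), and was -0.01 with median centring. Il33, an alarmin cytokine, had the lowest mean, -0.60 ± 0.12 (SD, n = 3; adjusted p = 0.00588).

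The 5 other genes of this list were not called after loess, and 4 of them are given here. Cdkn2a, which encodes p16 and p19 and is the classic target of both repressors, was dim and lay at 0.03 ± 0.02 (adjusted p = 0.564). It turned to -0.13 with the processed intensities, where it was not called. With median centring it was called lower, at -0.31 (adjusted p = 0.00354 with limma). Ccn4, a WNT-responsive matrix protein, varied most, at -0.37 ± 0.34 (adjusted p = 0.0717). Gja5, connexin 40, lay at -0.03 ± 0.05, and with median centring it was called higher, at 0.25 (adjusted p = 0.0151 with limma). Nppa, the atrial natriuretic peptide, lay at -0.06 ± 0.24. With the processed intensities Cdkn1a, Gja1 and Cdh1 were not called either (adjusted p = 0.0755, 0.0602 and 0.113). Without array 2 none of the 12 genes was called in either direction, and without array 3 there were 3 calls.

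The T-box core was searched for in the promoters of these genes, and the sequences with a match are shown because they are where a T-box factor could bind near the start. The motif was GGTGTGA, or TCACACC on the other strand, in 300 bases from 250 before to 50 after the start, in RefSeq's GRCm38.p6 promoters; 3.98% of all 32851 promoters hold it. Of 12 promoters entered for 9 of the 12 genes, 2 held a match, written in capitals. In the gene lists described below, 0 of 13 promoters of other T-box genes and 0 of 17 of lung bud signals held it. It was found in 0 of 23 promoters of genes that work with Tbx1 and in 2 of 40 of the deletion region. Genes beside the 2 T-box pairs had it in 0 of 8 and 0 of 3. Whether the target list holds more than its share was not tested. The Cdkn1a promoter at chr17:29093519-29093818 on the plus strand has it 14 bases after the start base. The other promoter entered for Cdkn1a, at chr17:29090729-29091028, has no match. The Nppa promoter at chr4:148000472-148000771 on the plus strand has it at the first bases of the window, on the other strand.
Cdkn1a: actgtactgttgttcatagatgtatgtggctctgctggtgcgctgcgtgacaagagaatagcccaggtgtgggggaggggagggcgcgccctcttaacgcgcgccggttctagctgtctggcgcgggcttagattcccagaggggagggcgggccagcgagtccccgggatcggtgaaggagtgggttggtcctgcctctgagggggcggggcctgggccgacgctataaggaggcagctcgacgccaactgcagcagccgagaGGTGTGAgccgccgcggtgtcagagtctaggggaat
Nppa: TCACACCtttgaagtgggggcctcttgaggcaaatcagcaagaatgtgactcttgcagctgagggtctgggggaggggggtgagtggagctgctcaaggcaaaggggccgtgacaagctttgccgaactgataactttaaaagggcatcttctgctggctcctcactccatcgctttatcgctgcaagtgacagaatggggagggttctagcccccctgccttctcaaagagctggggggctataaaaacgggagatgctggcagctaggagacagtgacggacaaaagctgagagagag
The gene of the first was called lower, and that of the second was not called. Among the T-box genes themselves, Tbx1 had 2 promoters entered and Tbx4 had 1, and these 3 held no match to these letters. No promoter was entered for Tbx2, Tbx3 and Tbx5.

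The signals with which Tbx4 and Tbx5 work in the lung bud were called in both directions. Of 24 such genes, 22 were tested, 9 were called higher and 3 lower, with a median log2 ratio of 0.13. These are 40.9% higher and 13.6% lower, where 13.6% of all genes were called higher and 13.0% lower, so the lower share is near that of all genes. Hhip, which binds and limits hedgehog ligands, fell 1.76-fold, with ratios of -0.65, -0.93, -0.75 and -0.93, a mean of -0.81 ± 0.14 (SD, n = 4; adjusted p = 0.00150) and -0.63 on its other probe. Gli3, a transcription factor at the end of the hedgehog pathway, rose by 0.44 ± 0.13 (adjusted p = 0.00636). Ptch1, the hedgehog receptor, rose by 0.35 ± 0.07 (adjusted p = 0.00554), while its other probe lay at 0.16 and was not called (adjusted p = 0.0607). Fgf10, the bud-inducing growth factor downstream of Tbx4 and Tbx5, had ratios of 0.21, 0.07, 0.11 and 0.16 and a mean of 0.14 ± 0.06 (adjusted p = 0.0687), and Bmp4 lay at 0.08 ± 0.03 (adjusted p = 0.170); these 2 were picked for their role after the values were seen. Fgf10 was thus not called, as Tbx4 and Tbx5 were not. With the processed intensities 6 genes of the list were called in either direction, and leaving out 1 of arrays 2, 3 and 4 left 3, 4 and 3.

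Among other members of the T-box family, Tbx6, a factor of the presomitic mesoderm, fell 1.84-fold. Its log2 ratios were -1.34, -0.82, -0.88 and -0.47, a mean of -0.88 ± 0.36 (SD, n = 4; adjusted p = 0.00778). The hypomorph was lower on every array, and without array 2 the adjusted p was 0.0514. Of 12 other T-box genes, 7 were tested and Tbx6 was the 1 called, a share of 14.3% lower where 13.0% of all genes were; Tbx10, Tbx19, Tbx22, Eomes and Tbr1 were too dim. The median log2 ratio of the 7 was -0.10, and with median centring it was -0.31 with 5 called lower and 1 higher, where 12.8% of all probes were called lower and 36.7% higher. Tbx20, a factor of heart muscle and endocardium, had ratios of -0.17, -0.46 and -1.27 on arrays 2 to 4 and a mean of -0.63 ± 0.57 (SD, n = 3; adjusted p = 0.0796), named here for its spread after the values were seen. All 10 cardiac muscle markers were well above background in all 8 pools, and their summed intensity, over the 9 with values throughout, ran from 30882 to 69462 in the wild type pools and from 30938 to 49282 in the hypomorph pools. The sum varied more between wild type pools than between the genotypes. The log2 ratios of the 10 markers ran from -0.75 to -0.06, with a median of -0.26. Of them 2 were called lower and 0 higher, a share of 20% lower where 13.0% of all genes were. With median centring 3 were called lower and 0 higher, where 12.8% of all probes were called lower and 36.7% higher. The part of cardiac muscle in the Tbx20 ratio was not tested.

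The genes that work with Tbx1 in the pharynx were mostly not called. Of 29 such genes, 24 were tested, 4 were called higher and 3 lower, with a median log2 ratio of -0.01. These shares, 16.7% and 12.5%, are near the 13.6% and 13.0% of all genes. Aldh1a2, which makes retinoic acid and is also a mesothelial gene, fell by 0.33 ± 0.11 (SD, n = 4; adjusted p = 0.0103), and was not called with median centring, at -0.09. Wnt5a, a secreted WNT ligand, rose by 0.25 ± 0.08 (adjusted p = 0.0158). Ripply3, a repressor that binds Tbx1, rose on its brighter probe by 0.32 ± 0.07 (SD, n = 3; adjusted p = 0.0171), while its other probe lay at 0.02 and was not called. Aldh1a2 lost its call without array 3 (adjusted p = 0.0507), Ripply3 without array 2 (0.106), and Wnt5a without array 2 (0.0883) or array 3. Leaving out array 2 or array 3 left 1 call in this list, and leaving out array 4 left 4.

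Mouse genes of the chromosome 16 stretch that matches the 22q11 deletion allow Tbx1 to be set against its neighbours. Of 35 such genes, 33 were tested, 4 were called higher and 6 lower, with a median log2 ratio of 0.06. These shares are 12.1% and 18.2%, where 13.6% of all genes were called higher and 13.0% lower. With median centring 22 were called higher and 1 lower, where 36.7% of all probes were called higher and 12.8% lower. Cdc45, a DNA replication factor, rose by 0.54 ± 0.16 (SD, n = 4; adjusted p = 0.00530), and Ufd1, a partner of the VCP unfoldase, rose by 0.33 ± 0.05 (adjusted p = 0.00607). Txnrd2, the mitochondrial thioredoxin reductase, fell by 0.36 ± 0.08 on its brightest probe (adjusted p = 0.00611), while its other probes lay at -0.08 and 0.05. Of the nearest protein-coding genes on each side of Tbx1, taken by position alone, Gnb1l lay at 0.01 ± 0.06 and Gp1bb at -0.00 ± 0.09 directly beside it, neither of them called. Farther out, Septin5 (0.06 ± 0.06) was not called either, while Txnrd2 and the endothelial tight junction gene Cldn5 (-0.31 ± 0.10, adjusted p = 0.0108) were called lower. With median centring Cldn5 (0.29), Gnb1l (0.24) and Septin5 (0.26) were called higher. Txnrd2 stayed called lower with it, at -0.17, and Gp1bb was not called, at 0.01.

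**Figure D5:**
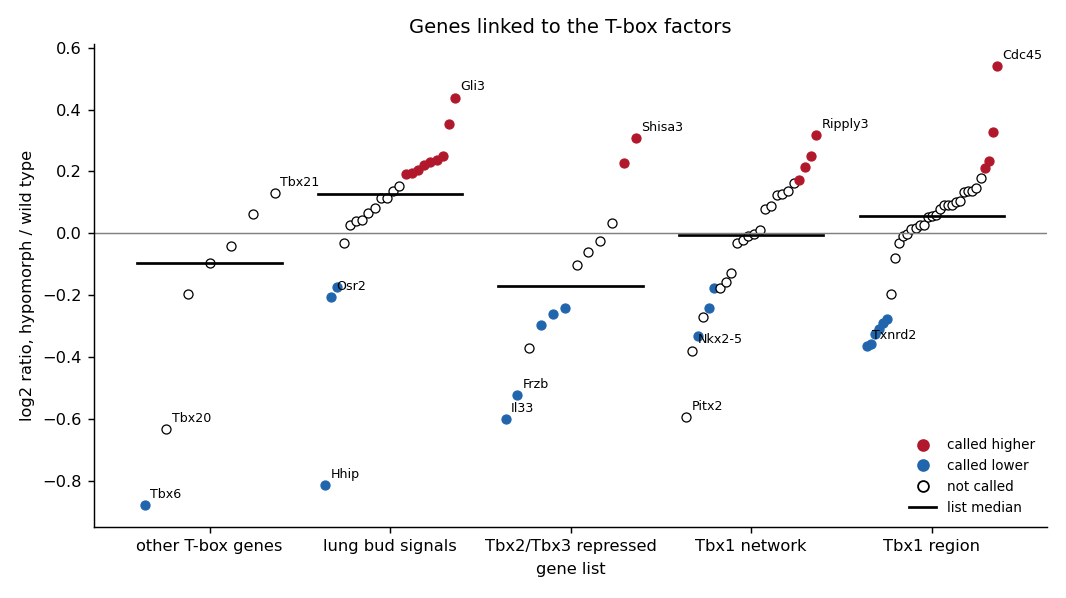
Log2 ratio of hypomorph over wild type (vertical axis) for each tested gene, by its brightest probe, in the 5 gene lists (horizontal axis), sorted within a list; colours mark calls and bars the list median. Calls lie on both sides of 0 in 4 of the lists; with median centring the list medians were -0.31, 0.33, -0.05, 0.09 and 0.27 from left to right.

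Tbx2 and Tbx4 lie together on chromosome 11, with 70.2 kb between the Tbx2 probe and the nearer Tbx4 probe, and Tbx3 and Tbx5 lie together on chromosome 5. In each pair the repressor was called lower and the activator was not, with the differences within arrays given above. Around Tbx2 and Tbx4, the 6 nearest protein-coding genes were tested and Brip1, a helicase of DNA repair, was the 1 called, at 0.48 ± 0.04 on 1 probe (SD, n = 4; adjusted p = 0.00201) and 0.49 on the other. Bcas3, beside Tbx2, lay at -0.01 ± 0.06. With median centring Brip1 stayed called higher, and Appbp2 (0.48), Ppm1d (0.31) and Med13 (0.35) were called higher too, where 36.7% of all probes were. Around Tbx3 and Tbx5, 4 of the 6 nearest genes were tested, and each was called on its brightest probe. Over all genes 13.6% were called higher and 13.0% lower. Rnft2 (0.29 ± 0.15, SD, n = 3, adjusted p = 0.0413) and Spring1 (0.23 ± 0.12, SD, n = 4, adjusted p = 0.0339) were higher. Med13l, a subunit of the Mediator kinase module, was called lower on its brighter probe (-0.26 ± 0.06, adjusted p = 0.0109) and higher on its other probe (0.44 ± 0.11, adjusted p = 0.00527), so it has no single direction. With median centring the brighter Med13l probe was not called, at 0.11. Rbm19, an RNA-binding protein of the nucleolus, rose by 0.21 ± 0.11 (adjusted p = 0.0395), and the call was lost without any 1 of the 4 arrays. Dtx1, a Notch regulator farther away, fell by 0.43 ± 0.22 (adjusted p = 0.0185), and its call was lost without array 2, 3 or 4. The list of genes beside Tbx2 and Tbx4 also held Naca, called higher (0.41 ± 0.20, adjusted p = 0.0166), which RefSeq places on chromosome 10 and which is therefore no neighbour.

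Genes whose levels followed each T-box gene most closely were ranked by Pearson's r of log2 intensity across the pools, over 12932 genes and 8 pools, or 13298 genes and 6 pools for Tbx3. Pools of an array share its brightness and pools of a genotype share its ratio, so a high r can come from either, and the closest of so many genes is high by selection. Nearest to Tbx2 were Krt19 (r = 0.993), Tmem184a (r = 0.990) and Sh3gl1 (r = 0.988); Krt19, a keratin of mesothelium and other epithelia, was itself called lower at -0.31 ± 0.09 (adjusted p = 0.00948). Nearest to Tbx3 were Mllt3 (r = 0.999), Atp7a (r = 0.998) and Dph2 (r = 0.996). Nearest to Tbx1 were Rasgrp4 (r = 0.994), Il17re (r = 0.981) and Actr5 (r = 0.975). The activators had other nearest genes: Slc25a15 (r = 0.971), Agpat2 (r = 0.967) and Lrrn1 (r = 0.955) for Tbx4, and Rrp1b (r = 0.989), Ttc16 (r = 0.985) and Zfp13 (r = 0.982) for Tbx5.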

How the data were processed

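Total RNA of 4 pools per genotype was hybridised to 4 two-colour Agilent arrays on 1 slide, read in 1 scan. The submitters' processing notes name Agilent Feature Extraction 9.5.1 as the image software. Its mean, background and processed intensities are linear scanner values as deposited, and the processed ones had background subtracted and dyes normalized, per the file headers. The deposited series table holds log2 values that equal log2 of processed red over green, without centring. Here mean intensities were corrected with normexp (offset 50) and normalized by loess (span 0.3, control spots at weight 0) with limma 3.58.1 in R 4.3.3. Control spots and spots marked as outliers were left out, and spots of a probe were averaged. A probe that 1 or both channels showed well above background on 3 or more of the 4 arrays, with values on 3, was tested against 0 with lmFit and eBayes (adjusted p under 0.05). Levels per channel follow loess and Aquantile. Of 41174 probes, 24375 took their gene name by accession through a RefSeq table of GRCm38.p6, and no probe became a T-box member only that way.

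A listed gene is represented by its brightest tested probe. The genes named are Fgf8, up to 3 genes per list with the smallest p among those called with 1 sign on all arrays, the measured genes of the list of Tbx2 and Tbx3 targets, and the 3 genes most correlated with each member. A few listed genes are not reported here by name. The members and lists were chosen with earlier results of these data known. The fit and the calls were tried on simulated log2 ratios. Background correction, normalization and the filter on dim probes were not part of that trial. With 4 pools per genotype the number of arrays limits the precision. Alternatives covered background, normalization, filters, marked spots, variance models, probe choice and leaving out each array.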

Additional observations from a re-analysis of the deposited data

Results flagged for a closer look

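Of 46 groups of 4 values tested for a value far from the others, 1 was past Dixon's critical value for the gap over the range, and chance flags about 1 in 20 groups. The wild type level of the dimmer Tbx4 probe was 9.39 on array 4, apart from the other 3 arrays by 0.932 of the range.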

How the results depend on the processing

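Across 45 results and 21 alternatives, 796 values kept their direction and side of the threshold (counts within 1.5 times). Median centring turned Tbx1 (0.14), Tbx2 (0.10), the brighter Tbx3 probe (0.14) and Med13l (0.11), and left them uncalled. It turned and called the brighter Tbx5 probe (0.38), Cdkn2a (-0.31) and Gja5 (0.25). It also called Tbx4 (0.26 and 0.28) and the dimmer Tbx5 probe (0.26). With it T-box calls were 1 lower and 4 higher, and calls were 10998 for all probes higher, 6 for other T-box genes, 14 for the Tbx1 network, 23 for the deletion region and 3 lower Tbx2 and Tbx3 targets. Processed intensities and the deposited table, which hold the same ratios, left Tbx2 uncalled (-0.18), turned the brighter Tbx5 probe (0.027), Cdkn2a (-0.13) and Gja5 (0.0087), and gave 6 lung bud calls and 4 target calls, 3 of them lower. The brighter Tbx5 probe also turned with plain background subtraction (0.0036), a loess span of 0.1 (0.038) and the mean of its probes (0.067), which turned Gja5 (0.050) and Med13l (0.087) and left 2374 genes lower. Tbx1 was called with scaling between arrays (-0.15), array weights (-0.14), separate channels, a stricter filter, marked spots kept, background marks ignored, trended robust variance, the brightest probe and the mean of probes (-0.15 in each). Array weights gave 12 calls in the Tbx1 network.

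Leaving out 1 array moved the ratios within -0.17 to -0.12 for Tbx1, -0.25 to -0.22 for Tbx2, -0.47 to -0.44 and -0.64 to -0.38 for Tbx3, -0.0012 to 0.095 and 0.095 to 0.24 for Tbx4, and -0.026 to 0.0097 and 0.10 to 0.18 for Tbx5, and turned Nppa (0.044). Calls then ran from 0 to 3 for T-box probes lower, 784 to 4084 for all probes lower, 827 to 3974 higher, 0 to 2 for other T-box genes, 3 to 9 for lung bud genes, 0 to 7 for Tbx2 and Tbx3 targets (0 to 5 lower), 1 to 9 for the Tbx1 network and 3 to 11 for the deletion region. Of 27 listed genes, 1, 14, 10 and 6 lost their call without array 1, 2, 3 and 4. The cause of these changes was not tested.

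The ratio within an array is itself a paired comparison of 1 pool of each genotype, and with 1 group of arrays no further replicate block could be fitted. The brighter Tbx3 probe could not be fitted with separate channels. No signal limited the T-box probes, all well above background. Without a dye swap and with 4 arrays, small ratios such as those of Tbx1 and Tbx2 stay near the threshold.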
